A study of Rattus norvegicus with 24 samples.

Results

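The genes described here encode the proteins of oxidative phosphorylation. They were chosen by name: every probe set of a rat expression array whose single gene symbol in the platform annotation starts with Nduf, Uqcr or Atp5, is one of Sdha to Sdhd, or starts with Cox4, Cox5, Cox6, Cox7 or Cox8. This gave 96 probe sets of 86 genes among 31099 probe sets on the array, and a gene with several probe sets was read at the one of highest mean signal. A filter that removed the 40% dimmest probe sets left 81 of the 86 genes, which were 41 of 42 in complex I, all 4 in complex II, all 7 in complex III, 13 of 17 in complex IV and all 16 in complex V. The genes below the filter were Ndufaf1, Cox4i2, Cox6b2, Cox7b2 and Cox8b. Because the choice rests on symbols, the kept genes also include 5 complex I assembly factors (Ndufaf3, Ndufaf4, Ndufaf5, Ndufaf7 and Ndufaf8), the ATP synthase inhibitor Atp5if1 and the pseudogene Cox6c-ps1. Genes were assigned to complexes by symbol too. Ndufa4 and Ndufa4l2 are therefore counted in complex I and Cox7a2l in complex IV, wherever their proteins act. A further 7 probe sets name such a gene together with other symbols and were not counted as members. The subunits encoded in mitochondrial DNA carry other symbols and are outside the rule, as is Cyc1, a subunit of complex III.

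The rats were Fisher 344 males of 11 to 12 weeks, each given 1 dose of D-serine, an amino acid that acts as a co-agonist at the NMDA type of glutamate receptor. They received vehicle (0 mg/kg), 5, 20, 50, 200 or 500 mg/kg and were killed 96 h later. Total RNA from a piece of about 30 mg labelled as forebrain was hybridised to 1 array per rat. There were 6 groups of 4 rats, which makes 24 arrays, and by the labels each array is of a different rat. The labels do not say how the piece was dissected. Animal numbers in the labels run in blocks by group, vehicle first, then 500, 200, 50, 20 and 5 mg/kg, so dose and any handling in that order cannot be told apart.

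Oxidative phosphorylation takes place in the inner mitochondrial membrane. Complex I and complex II pass electrons from NADH and succinate to ubiquinone, complex III passes them on to cytochrome c, complex IV reduces oxygen, and complex V, the ATP synthase, makes ATP from the proton gradient that complexes I, III and IV build. In brain most ATP is made this way and a large part of it pays for synaptic signalling, and the nuclear genes of the pathway are highly expressed in neurons.

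Values are log2(intensity + 16) after quantile normalization, which gives every array the same distribution of signals. Differences are on that scale, dose group minus vehicle, with the standard error of the fit. A gene is said to have risen or fallen when its p from limma's moderated test, adjusted by the Benjamini-Hochberg method over 18625 probe sets, was under 0.05. The median deposited intensity per array lay between 55.8 and 103.65. The 4 arrays of a group limit the precision, and in tissue of mixed cells fewer cells of a type and less RNA per cell cannot be told apart.

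Some array measures moved with the dose groups and stand beside all results below. Gapdh has control probe sets at its 3' and 5' ends, and the log2 ratio of their signals, 3' over 5', is higher where the labelled RNA is less complete. This ratio averaged 0.82 ± 0.06 with vehicle and 0.19 ± 0.07, 0.18 ± 0.04, 0.34 ± 0.17, 0.60 ± 0.21 and 0.75 ± 0.14 at doses of 5, 20, 50, 200 and 500 mg/kg (SD, n = 4 each). The beta-actin ratio averaged 1.68 ± 0.11, 1.59 ± 0.18 and 1.86 ± 0.07 at 5, 20 and 50 mg/kg, against 2.52 ± 0.18 with vehicle. In an exact two-sided permutation test, each of these 3 doses differed from vehicle in both ratios with p = 0.0286, the smallest that 4 against 4 arrays can give (adjusted p = 0.0477 over the 5 doses). The part of RNA completeness in the gene differences was not tested, and values from a model with the Gapdh ratio as a term are given further on.

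The forebrain label was checked against regional markers. On array 4 of the 500 mg/kg group the mean level of 6 cerebellar markers was 10.18, while on the other arrays it lay between 5.94 and 7.36. The mean level of 5 excitatory neuron markers of cortex and hippocampus was 7.41 there and 9.26 to 10.08 elsewhere. That array's median correlation with the others was 0.855, against 0.957 to 0.971 for the rest. On 5 arrays (vehicle array 2, 50 mg/kg array 3, 200 mg/kg arrays 1 and 4 and the array just named) the mean level of 2 choroid plexus markers was 9.58 to 10.45, and on the other 19 it was 6.07 to 7.18. Thalamic markers averaged 9.49 on vehicle array 2 and 8.99 on 50 mg/kg array 3, against 7.02 to 8.04 elsewhere, and the mean of 5 striatal markers ranged between 6.75 and 9.59 over all arrays. The excitatory neuron markers (5 of 6 listed genes above the filter) averaged 9.53 ± 0.19 with vehicle and 9.76 ± 0.26, 9.84 ± 0.16, 9.78 ± 0.27, 9.73 ± 0.04 and 9.07 ± 1.11 at doses of 5, 20, 50, 200 and 500 mg/kg (SD, n = 4 each). Those of oligodendrocytes (6 of 7 above the filter) averaged 10.67 ± 0.54 with vehicle and 10.22 ± 0.14, 10.10 ± 0.38, 10.58 ± 0.30, 10.58 ± 0.52 and 10.51 ± 0.21. The part of these differences in tissue in the results was not tested. Counts without the arrays that stand apart, and the calls of named genes that change without 500 mg/kg array 4, are given below.

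Among the 81 genes, each at its brightest probe set, few changed against vehicle, the changes went both ways, and all were at 5 or 20 mg/kg. At 5 mg/kg the ATP synthase subunits Atp5f1a and Atp5pb, the complex II flavoprotein Sdha and the complex I subunit Ndufa8 rose, and the complex I subunit Ndufb9 fell. At 20 mg/kg Atp5pb, Atp5f1a, Sdha and the complex III core protein Uqcrc2 rose, while Atp5f1e, Ndufb1, Uqcrq, Cox7b and Ndufb9 fell. None of the 81 genes passed at 50, 200 or 500 mg/kg. At these probe sets the measured differences stayed between 0.439-fold and 1.30-fold of vehicle at every dose, the lower end being the dim muscle isoform Cox6a2 at 500 mg/kg.

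In counts, 5 of 81 genes passed at 5 mg/kg (6.17%), against 3.24% of 10205 genes and 5.52% of probe sets over the whole array. Of them 4 were higher (4.94%, against 1.83% of all genes) and 1 was lower (1.23%, against 1.41%). At 20 mg/kg 9 of 81 passed (11.1%), against 5.16% of genes and 8.48% of probe sets. Here 4 were higher (4.94%, against 2.65%) and 5 lower (6.17%, against 2.52%). The members' shares were above those of the array at both doses, on 5 and 9 genes, and 1 gene is 1.23% of the set. Without array 4 of the 500 mg/kg group, which enters the estimate of the spread, 8 members passed at 5 mg/kg (9.88%, against 8.98% of probe sets), 13 at 20 mg/kg (16%, against 12.7%) and 2 at 50 mg/kg (2.47%, against 2.45%). Among the named genes, those that then passed in addition were Ndufb1 and Uqcrc2 at 5 mg/kg (adjusted p = 0.0268 and 0.0382), Ndufa8 and Ndufaf3 at 20 mg/kg (adjusted p = 0.0218 and 0.0485), and Sdha and Atp5pb at 50 mg/kg (adjusted p = 0.0465 and 0.043). With all 5 arrays of high choroid plexus markers left out, an alternative chosen after seeing the data, 5 members passed at 5 mg/kg (6.17%, against 6.79%), all of them higher, and 7 passed at 20 mg/kg (8.64%, against 10%), 5 higher and 2 lower. Uqcrq, Cox7b and Ndufb9 did not pass then at 20 mg/kg (adjusted p = 0.0515, 0.0722 and 0.0767), nor did Ndufb9 at 5 mg/kg (adjusted p = 0.0584).

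At 50 mg/kg no member passed, with 0.402% of all genes and 0.864% of probe sets passing. 15 of the 81 had an unadjusted limma p under 0.05 (18.5%, against 10% of all genes). At 200 mg/kg no member passed, and neither did any gene or probe set of the array (0%), with 1 member under an unadjusted p of 0.05 (1.23%, against 4.4%). At 500 mg/kg no member and no gene passed (0%), 1 probe set did (0.00537%), and 6 members had an unadjusted p under 0.05 (7.41%, against 6.7%). Over all 6 groups together, the F test called 5 genes (6.17%, against 3.37% of genes and 5.93% of probe sets): Atp5pb, Atp5f1a, Sdha, Ndufb8 and Atp5f1e.

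With quantile normalization the set as a whole stayed near the array's centre. The median difference of the 81 genes was 0.05 at 5 mg/kg, 0.02 at 20, 0.02 at 50, 0.01 at 200 and 0.03 at 500 mg/kg, and that of all genes lay between -0.0075 and 0.0048 at these doses. At 5 mg/kg 50 of 81 genes were above vehicle (61.7%, against 48.7% of all genes), and at 20 mg/kg 44 of 81. With each array centred on its median instead, the members' median was 0.153 at 5 mg/kg and 0.121 at 20 mg/kg, beside 0.0565 and 0.0662 for all genes, and 64 and 53 of 81 members were above the all-gene median. The members were measured more tightly than most genes. Their median residual SD between rats of a group was 0.0961, against 0.186 for all genes.

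The groups separated fully from vehicle for more members than calls alone show. At 5 mg/kg 16 genes had all 4 arrays above all 4 vehicle arrays and 3 had all 4 below (23.5%, against 10.9% of all genes, with 3.24% called). At 20 mg/kg the counts were 16 above and 7 below (28.4%, against 12.2%, with 5.16% called). They were 5 and 4 at 50 mg/kg (11.1%, against 6.25%), 1 and 0 at 200 mg/kg (1.23%, against 3.19%), and 2 and 1 at 500 mg/kg (3.7%, against 2.63%).

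**Figure D1:**
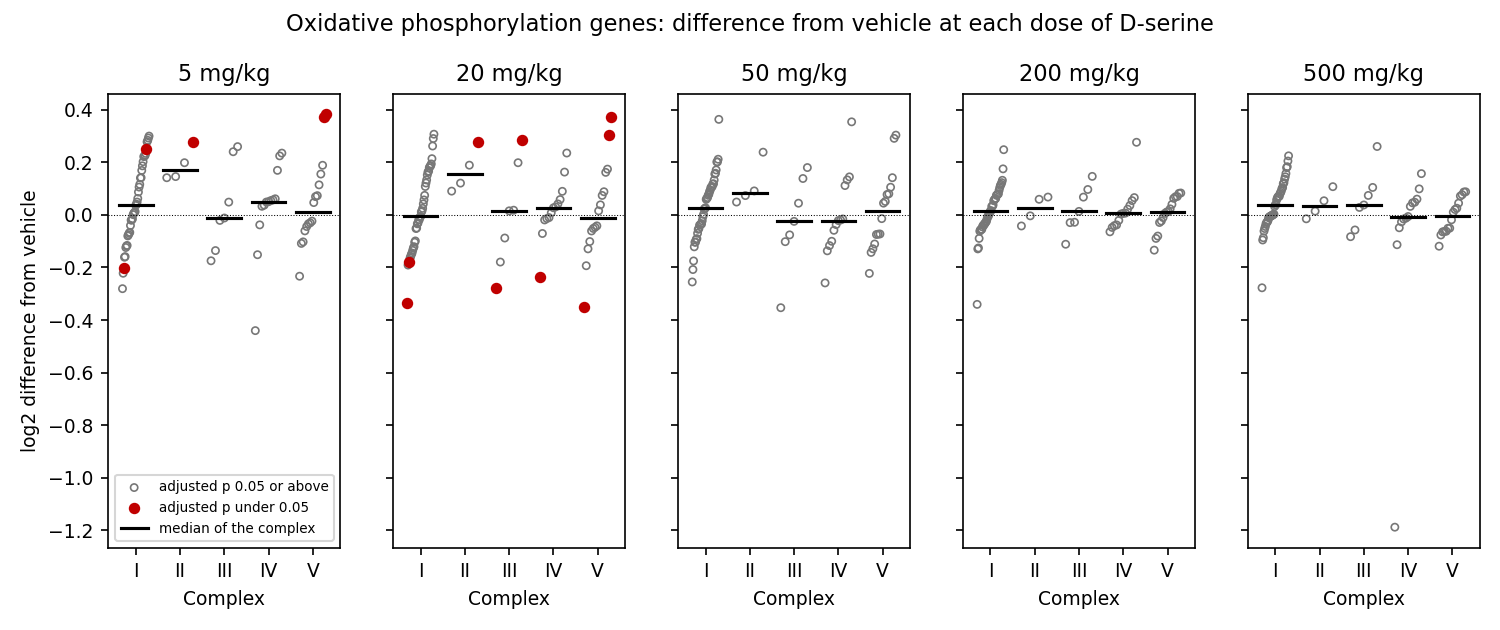
Log2 difference from vehicle of each of the 81 genes (points) at the 5 doses of D-serine, by complex on the horizontal axis. Filled points have an adjusted p under 0.05 and bars are the median of each complex. The filled points are 5 at 5 mg/kg and 9 at 20 mg/kg, on both sides of 0, and only complex II has all its points above 0 at 5, 20 and 50 mg/kg.

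The promoters of 6 genes that rose or fell are shown because the nuclear genes of oxidative phosphorylation are known targets of a few shared transcription factors, NRF1, the ETS factor GABP and YY1. The windows run from 250 bases before to 50 after the start site, from RefSeq on the GRCr8 build, written 5′ to 3′ along the gene. Sdha lies on the plus strand at chr1:30764303-30764602, Uqcrc2 on the plus strand at chr1:184598990-184599289, and Atp5f1a on the plus strand at chr18:73567287-73567586. On the minus strand lie Atp5pb at chr2:196123688-196123987, Atp5f1e at chr3:183680123-183680422 and Uqcrq at chr10:38089929-38090228. Capitals mark matches to the NRF1 motif or to CCGGAAG (ETS), on either strand.
Sdha: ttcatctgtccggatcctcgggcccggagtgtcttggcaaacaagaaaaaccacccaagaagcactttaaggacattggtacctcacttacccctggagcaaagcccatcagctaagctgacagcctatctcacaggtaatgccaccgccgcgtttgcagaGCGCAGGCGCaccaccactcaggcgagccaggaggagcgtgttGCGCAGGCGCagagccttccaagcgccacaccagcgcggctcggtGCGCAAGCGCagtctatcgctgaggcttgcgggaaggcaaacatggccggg
Uqcrc2: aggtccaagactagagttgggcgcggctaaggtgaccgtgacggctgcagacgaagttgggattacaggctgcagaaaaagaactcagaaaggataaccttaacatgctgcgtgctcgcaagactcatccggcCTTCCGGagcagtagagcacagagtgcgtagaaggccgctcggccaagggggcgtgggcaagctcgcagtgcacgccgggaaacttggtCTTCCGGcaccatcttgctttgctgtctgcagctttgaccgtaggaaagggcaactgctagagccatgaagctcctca
Atp5f1a: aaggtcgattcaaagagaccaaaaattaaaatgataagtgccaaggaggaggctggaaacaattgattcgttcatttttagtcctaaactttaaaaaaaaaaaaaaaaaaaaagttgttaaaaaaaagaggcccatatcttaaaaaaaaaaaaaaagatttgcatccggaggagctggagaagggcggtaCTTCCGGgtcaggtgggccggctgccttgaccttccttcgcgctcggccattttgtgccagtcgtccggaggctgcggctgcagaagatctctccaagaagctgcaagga
Atp5pb: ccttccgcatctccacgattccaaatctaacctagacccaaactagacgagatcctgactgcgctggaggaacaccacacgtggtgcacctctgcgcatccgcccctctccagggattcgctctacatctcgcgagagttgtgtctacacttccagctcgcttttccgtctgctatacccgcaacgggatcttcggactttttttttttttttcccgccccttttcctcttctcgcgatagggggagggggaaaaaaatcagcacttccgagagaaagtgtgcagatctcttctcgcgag
Atp5f1e: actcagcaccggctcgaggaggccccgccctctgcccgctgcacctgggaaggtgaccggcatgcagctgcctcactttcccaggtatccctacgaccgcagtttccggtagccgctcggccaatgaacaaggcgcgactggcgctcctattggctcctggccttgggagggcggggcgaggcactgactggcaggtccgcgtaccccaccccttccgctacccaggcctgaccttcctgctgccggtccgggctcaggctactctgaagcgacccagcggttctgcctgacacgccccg
Uqcrq: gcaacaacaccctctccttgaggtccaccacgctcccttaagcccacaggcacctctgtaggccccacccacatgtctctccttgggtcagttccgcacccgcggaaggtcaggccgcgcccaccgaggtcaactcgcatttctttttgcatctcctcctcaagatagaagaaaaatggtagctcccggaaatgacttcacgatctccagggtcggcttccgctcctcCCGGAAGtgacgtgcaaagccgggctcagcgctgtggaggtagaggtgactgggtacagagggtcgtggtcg
Sdha held 3 NRF1 matches, the last of which begins at the base before the start site. Uqcrc2 held 2 ETS matches and Atp5f1a and Uqcrq, which fell, held 1 each. Atp5pb, which rose at both doses, and Atp5f1e, which fell, held none of the motifs searched. Of the members called against vehicle that had a window, 3 of 4 that rose and 1 of 4 that fell held a match, and no test was made. Over the 78 members with a window, the NRF1 motif occurred in 19.2%, ETS in 28.2%, YY1 in 24.4% and TATAAA in 10.3%. The share that held any of them is not given here, and 4 genes a side cannot show a link with direction. A match is only a run of letters, and its absence says nothing about the factor.

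The same letters were counted over 78 of the 86 genes that had a window of 300 bases in the RefSeq table, beside all 27457 such promoters. The NRF1 motif occurred in 15 of 78 (19.2%, against 4.71% of all promoters), and CCGGAAG in 22 (28.2%, against 9.22%). The YY1 letters AANATGGCG occurred in 19 (24.4%, against 3.33%), and the TATA box letters TATAAA in 8 (10.3%, against 14.3%). Both strands were searched, and matches of different motifs overlapped in 0 of the 78 windows. By complex, the NRF1 motif occurred in 8 of 40 promoters of complex I, 1 of 4 in II and 1 of 6 in III. It occurred in 0 of 13 in IV and 5 of 15 in V. In complexes I to V in turn, CCGGAAG occurred in 9, 2, 3, 3 and 5 of these windows. The YY1 letters occurred in 12, 1, 2, 1 and 3. The windows of complex IV include Cox6b2, Cox7b2 and Cox8b, which were below the filter. They lack the kept genes Cox6a1, Cox6c and Cox6c-ps1.

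Complex I, the NADH dehydrogenase, showed single genes moving in opposite directions around a centre near 0. Its 41 kept genes had a median difference of 0.04 at 5 mg/kg, -0.01 at 20, 0.03 at 50, 0.01 at 200 and 0.04 at 500 mg/kg. At 5 mg/kg 25 of 41 were above vehicle, and at 20 mg/kg 20 of 41. Ndufa8 rose and Ndufb9 fell at 5 mg/kg, and Ndufb1 and Ndufb9 fell at 20 mg/kg.

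Ndufb9, an accessory subunit of the membrane arm, had signals of 11.59, 11.63, 11.63 and 11.48 with vehicle, 11.34, 11.36, 11.41 and 11.42 at 5 mg/kg, and 11.35, 11.53, 11.37 and 11.37 at 20 mg/kg. At 50 mg/kg it had 11.40, 11.43, 11.39 and 11.41, at 200 mg/kg 11.62, 11.48, 11.52 and 11.57, and at 500 mg/kg 11.52, 11.55, 11.52 and 11.40. All arrays at 5 and 50 mg/kg were below all vehicle arrays, and at 20 mg/kg 1 array overlapped with vehicle. The difference was -0.20 ± 0.05 at 5 mg/kg (adjusted p = 0.0323), -0.18 ± 0.05 at 20 mg/kg (adjusted p = 0.0426) and -0.18 ± 0.05 at 50 mg/kg (adjusted p = 0.131). The call was fragile. At 5 mg/kg it was lost when any of arrays 1 to 3 of vehicle or of 5 mg/kg was left out, with an adjusted p of up to 0.0876, and at 20 mg/kg it was kept in 13 of 24 such refits, with an adjusted p of up to 0.116.

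Ndufb1, another small membrane-arm subunit, had 9.96, 10.14, 9.95 and 10.08 with vehicle, 9.71, 9.73, 9.69 and 9.89 at 5 mg/kg, and 9.74, 9.61, 9.54 and 9.91 at 20 mg/kg. All 8 dosed arrays were below all vehicle arrays, as were those at 50 mg/kg, with 9.94, 9.71, 9.77 and 9.70. It fell by 0.33 ± 0.09 at 20 mg/kg (adjusted p = 0.021), and was 0.28 below vehicle at 5 mg/kg (adjusted p = 0.0684, or 0.0268 without 500 mg/kg array 4). The call at 20 mg/kg was lost without vehicle array 2 or 4 or without 20 mg/kg array 2 or 3, with an adjusted p of up to 0.0914.

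Ndufa8, an accessory subunit on the intermembrane side, had 10.83, 10.89, 10.91 and 10.89 at 5 mg/kg, against 10.66, 10.66, 10.63 and 10.57 with vehicle, with no overlap. It rose by 0.25 ± 0.07 at 5 mg/kg (adjusted p = 0.0393) and was 0.19 above vehicle at 20 mg/kg (adjusted p = 0.111, or 0.0218 without 500 mg/kg array 4). Its call at 5 mg/kg was lost when any of the 8 arrays of vehicle and 5 mg/kg, 20 mg/kg array 3 or 50 mg/kg array 2 was left out, with an adjusted p of up to 0.105.

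The core subunits of complex I, which include those that carry flavin and iron-sulfur centres, gave no call. Of 6 core genes 5 were above vehicle at 5 and 20 mg/kg, with medians of 0.13 and 0.09. Ndufv1, which binds NADH, was 0.12 above at 5 mg/kg (adjusted p = 0.335) and 0.15 at 20 mg/kg (adjusted p = 0.15). Ndufs1, the largest iron-sulfur subunit, differed by 0.01 and 0.07. The 30 genes counted by symbol as accessory subunits had medians of 0.005 and -0.03 at these doses, and the 5 assembly factors 0.11 and 0.12.

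Complex II, succinate dehydrogenase, was the complex in which all measured genes lay above vehicle at the lower doses. Its 4 genes had a median difference of 0.17 at 5 mg/kg, 0.15 at 20, 0.08 at 50, 0.03 at 200 and 0.03 at 500 mg/kg. At the brightest probe sets only Sdha passed the test on its own, at 5 and 20 mg/kg. The median of all genes stayed within 0.01 of 0 at every dose.

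Sdha, the flavoprotein that oxidises succinate, had 10.22, 10.30, 10.28 and 10.22 with vehicle, 10.43, 10.66, 10.52 and 10.53 at 5 mg/kg and 10.49, 10.54, 10.54 and 10.58 at 20 mg/kg. At 50 mg/kg it had 10.36, 10.50, 10.56 and 10.56, at 200 mg/kg 10.33, 10.21, 10.34 and 10.42, and at 500 mg/kg 10.45, 10.38, 10.27 and 10.35. Every array at 5, 20 and 50 mg/kg was above every vehicle array, and the 200 and 500 mg/kg arrays overlapped with vehicle. It rose by 0.28 ± 0.06 at 5 mg/kg (1.21-fold, adjusted p = 0.0129) and 0.28 ± 0.06 at 20 mg/kg (1.21-fold, adjusted p = 0.0084), and was 0.24 above vehicle at 50 mg/kg (adjusted p = 0.077, or 0.0465 without 500 mg/kg array 4). The call at 20 mg/kg held in all 24 refits that left out 1 array, and that at 5 mg/kg was lost without 5 mg/kg array 2, the highest of its group, with an adjusted p of 0.058.

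The other complex II genes stayed short of the threshold at their brightest probe sets. Sdhb, the iron-sulfur subunit, was 0.14 above vehicle at 5 mg/kg (adjusted p = 0.126) and 0.09 at 20 mg/kg (adjusted p = 0.341). Sdhc, a membrane anchor, was 0.15 and 0.12 above (adjusted p = 0.322 and 0.391). Sdhd, the other anchor, was 0.20 and 0.19 above (adjusted p = 0.0846 and 0.0831), with all 8 arrays above all vehicle arrays.

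The mean level over the 4 complex II genes was 10.07, 10.16, 10.07 and 10.02 with vehicle, 10.20, 10.35, 10.26 and 10.27 at 5 mg/kg, and 10.23, 10.29, 10.27 and 10.21 at 20 mg/kg. At 50 mg/kg it was 10.13, 10.22, 10.20 and 10.22, at 200 mg/kg 10.11, 10.08, 10.12 and 10.09, and at 500 mg/kg 10.17, 10.15, 10.04 and 10.12. The 5 and 20 mg/kg arrays all lay above the highest vehicle array, and each of the other groups overlapped with vehicle. The mean difference was 0.19 at 5 mg/kg and 0.17 at 20 mg/kg, while for complexes I, III, IV and V it lay between -0.004 and 0.05 at these doses. Under median centring complex II was at 0.305 and 0.311 and the other complexes between 0.0932 and 0.166, with an all-gene median of 0.0565 and 0.0662. With the Gapdh ratio as a term complex II was at 0.126 and 0.105 (0.110 and 0.0877 without 500 mg/kg array 4). No test was made of these means, because the genes were chosen with earlier results known.

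**Figure D2:**
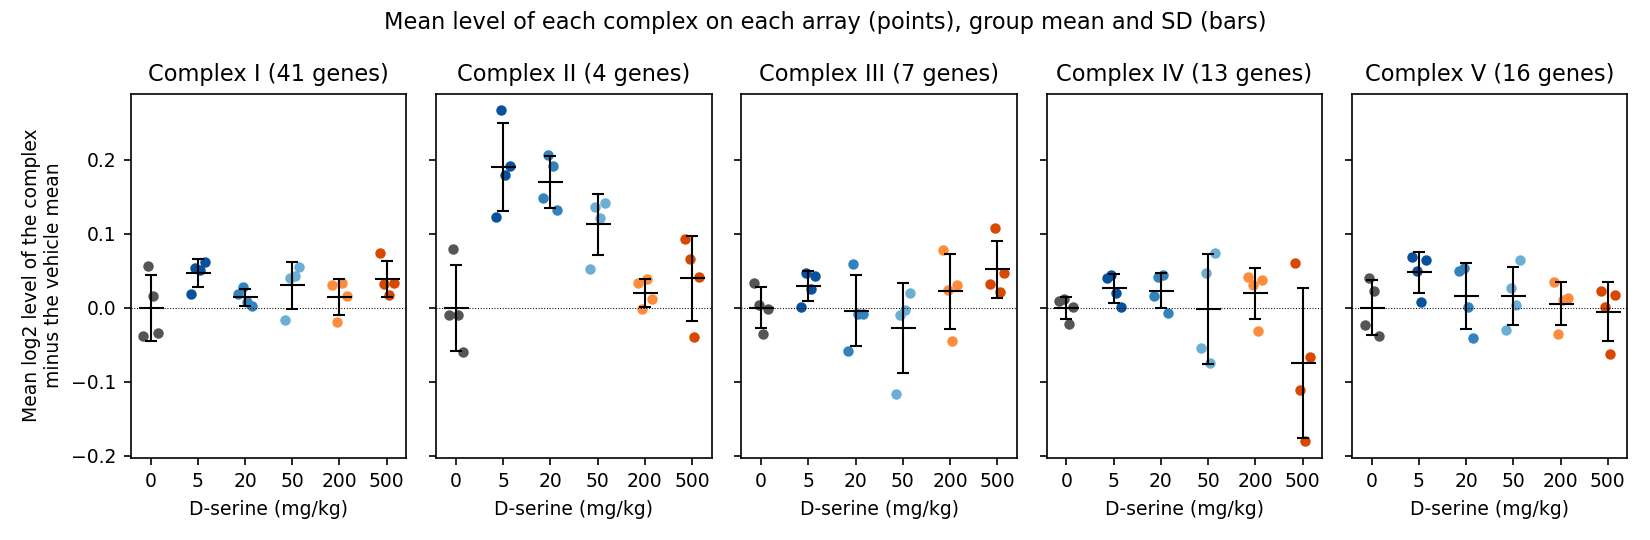
Mean log2 level of each complex on each array minus the vehicle mean, against dose (0 is vehicle), with 4 arrays a group as points and the group mean ± SD as bars. Complex II arrays at 5 and 20 mg/kg sit above all its vehicle arrays, with group means 0.19 and 0.17 above vehicle, while the arrays of each other complex overlap with its vehicle arrays at those doses.

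Complex III, the cytochrome bc1 complex, held 1 rise and 1 fall at the brightest probe sets of its members, both at 20 mg/kg. A dimmer probe set of Uqcrc2, and Cyc1, which the symbol rule leaves out, rose at 5 and 20 mg/kg and are given further on. The core protein Uqcrc2 rose, and the small subunit Uqcrq fell. The median over the 7 genes was -0.01 at 5 mg/kg and 0.02 at 20 mg/kg.

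Uqcrc2 had 10.64, 10.57, 10.55 and 10.57 with vehicle, 10.75, 10.94, 10.87 and 10.73 at 5 mg/kg, and 10.99, 10.93, 10.86 and 10.68 at 20 mg/kg. All arrays at both doses were above all vehicle arrays. It rose by 0.28 ± 0.08 at 20 mg/kg (1.22-fold, adjusted p = 0.0211) and was 0.24 ± 0.08 above at 5 mg/kg (adjusted p = 0.068). The call was lost without vehicle array 3 or without 20 mg/kg array 1, 2 or 3, with an adjusted p of up to 0.0802. The 5 mg/kg value passed without 500 mg/kg array 4 (adjusted p = 0.0382).

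Uqcrq had 10.60, 10.68, 10.60 and 10.64 at 20 mg/kg, against 11.00, 11.01, 10.90 and 10.73 with vehicle, with no overlap. It fell by 0.28 ± 0.08 at 20 mg/kg (adjusted p = 0.0282), and was 0.17 below at 5 mg/kg (adjusted p = 0.222). The call was lost without vehicle array 1, 2 or 3 or 20 mg/kg array 1 or 3, with an adjusted p of up to 0.0914. Uqcrc1, the other core protein, differed by -0.02 at 5 mg/kg and -0.09 at 20 mg/kg. Uqcrfs1, the Rieske protein, was 0.26 above at 5 mg/kg (adjusted p = 0.145), 0.20 above at 20 mg/kg, and 0.26 above at 500 mg/kg (adjusted p = 0.712), or 0.23 there without array 4 (adjusted p = 0.8).

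Complex IV, cytochrome c oxidase, held 1 call. Its 13 genes had a median of 0.05 at 5 mg/kg, 0.03 at 20, -0.02 at 50, 0.01 at 200 and -0.01 at 500 mg/kg. Cox7b, a small subunit needed for assembly of the complex in human cells, had 11.45, 11.39, 11.35 and 11.56 at 20 mg/kg, against 11.61, 11.77, 11.55 and 11.75 with vehicle. A single array at 20 mg/kg overlapped with vehicle, and the gene fell by 0.23 ± 0.07 (adjusted p = 0.0352). The call was lost without vehicle array 2 or 4 or 20 mg/kg array 1, 2 or 3, with an adjusted p of up to 0.12.

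Cox4i1, the main isoform of subunit 4, had 11.91, 12.05, 12.08 and 12.08 with vehicle, 12.24, 12.17, 12.25 and 12.14 at 5 mg/kg, and 12.12, 12.22, 12.31 and 12.11 at 20 mg/kg. All dosed arrays in these groups were above all vehicle arrays, yet the differences of 0.17 and 0.16 did not pass (adjusted p = 0.0844 and 0.0795). Cox5a differed by 0.04 and -0.01, Cox6c by 0.05 and 0.04, and Cox8a by 0.06 and 0.09, none passing.

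The tissue isoforms were mostly dim. Cox4i2, Cox6b2 and Cox8b fell below the filter, while the common forms Cox6a1, Cox6b1 and Cox8a passed it. Cox6a2, the form of heart and skeletal muscle, had 6.70, 4.63, 4.43 and 4.82 at 500 mg/kg, against 6.65, 6.03, 6.23 and 6.42 with vehicle. Array 1 of that dose was level with vehicle and the other 3 were low, so that the difference of -1.19 ± 0.45 did not pass (adjusted p = 0.698). Without array 4 it was -1.08 (adjusted p = 0.797). The muscle form Cox7a1 was 0.14 to 0.28 above vehicle at all doses, with no call.

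Complex V, the ATP synthase, held rises and a fall. Atp5pb, the b subunit of the peripheral stalk, and Atp5f1a, the alpha subunit of the catalytic head, rose at 5 and 20 mg/kg. Atp5f1e, the epsilon subunit of the central stalk, fell at 20 mg/kg. With quantile normalization 8 of the 16 genes were above and 8 below vehicle at both doses, with medians of 0.01 and -0.01. Under median centring 13 were above the all-gene median at 5 mg/kg and 10 at 20 mg/kg.

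Atp5pb had 11.09, 11.35, 11.15 and 11.04 with vehicle, 11.60, 11.48, 11.51 and 11.54 at 5 mg/kg, and 11.69, 11.47, 11.61 and 11.36 at 20 mg/kg. At 50 mg/kg it had 11.43, 11.36, 11.54 and 11.47, at 200 mg/kg 11.22, 11.08, 11.31 and 11.28, and at 500 mg/kg 11.29, 11.10, 11.12 and 11.05. The 12 arrays at 5, 20 and 50 mg/kg were above every vehicle array, while those at 200 and 500 mg/kg overlapped with vehicle. It rose by 0.37 ± 0.08 at 5 mg/kg (1.29-fold, adjusted p = 0.00618) and 0.37 ± 0.08 at 20 mg/kg (1.30-fold, adjusted p = 0.00427), and was 0.29 above at 50 mg/kg (adjusted p = 0.0763, or 0.043 without 500 mg/kg array 4). Both calls held in all 24 refits that left out 1 array.

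Atp5f1a had 10.58, 10.98, 10.89 and 10.76 with vehicle, 11.24, 11.21, 11.14 and 11.14 at 5 mg/kg, and 11.12, 11.15, 11.24 and 10.91 at 20 mg/kg. At 50 mg/kg it had 10.92, 11.18, 11.15 and 11.16, at 200 mg/kg 10.88, 10.75, 11.05 and 10.85, and at 500 mg/kg 10.93, 10.85, 10.82 and 10.90. The 5 mg/kg arrays were above all vehicle arrays, and 1 array each at 20 and 50 mg/kg overlapped with them. It rose by 0.38 ± 0.09 at 5 mg/kg (1.30-fold, adjusted p = 0.009) and 0.30 ± 0.09 at 20 mg/kg (1.23-fold, adjusted p = 0.0273), and was 0.30 above at 50 mg/kg (adjusted p = 0.0895). The first call held in all 24 refits, and the second was lost without vehicle array 1 or 4 or 20 mg/kg array 1, 2 or 3, with an adjusted p of up to 0.117.

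Atp5f1e had 11.40, 11.21, 11.27 and 11.15 with vehicle, 10.95, 10.98, 10.99 and 11.17 at 5 mg/kg, and 10.84, 10.91, 10.86 and 11.02 at 20 mg/kg. The 20 mg/kg arrays were all below vehicle and 1 array at 5 mg/kg overlapped. It fell by 0.35 ± 0.08 at 20 mg/kg (0.785-fold, adjusted p = 0.00758), a call kept in all 24 refits, and was 0.23 below at 5 mg/kg (adjusted p = 0.0907). Atp5f1b, the catalytic beta subunit that forms the head with alpha, differed by 0.07, 0.04 and 0.10 at 5, 20 and 50 mg/kg, without passing. The 4 peripheral stalk genes had 2 above and 2 below vehicle at 5 and 20 mg/kg, with Atp5po, the subunit that tops the stalk, at -0.11 and -0.13.

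**Figure D3:**
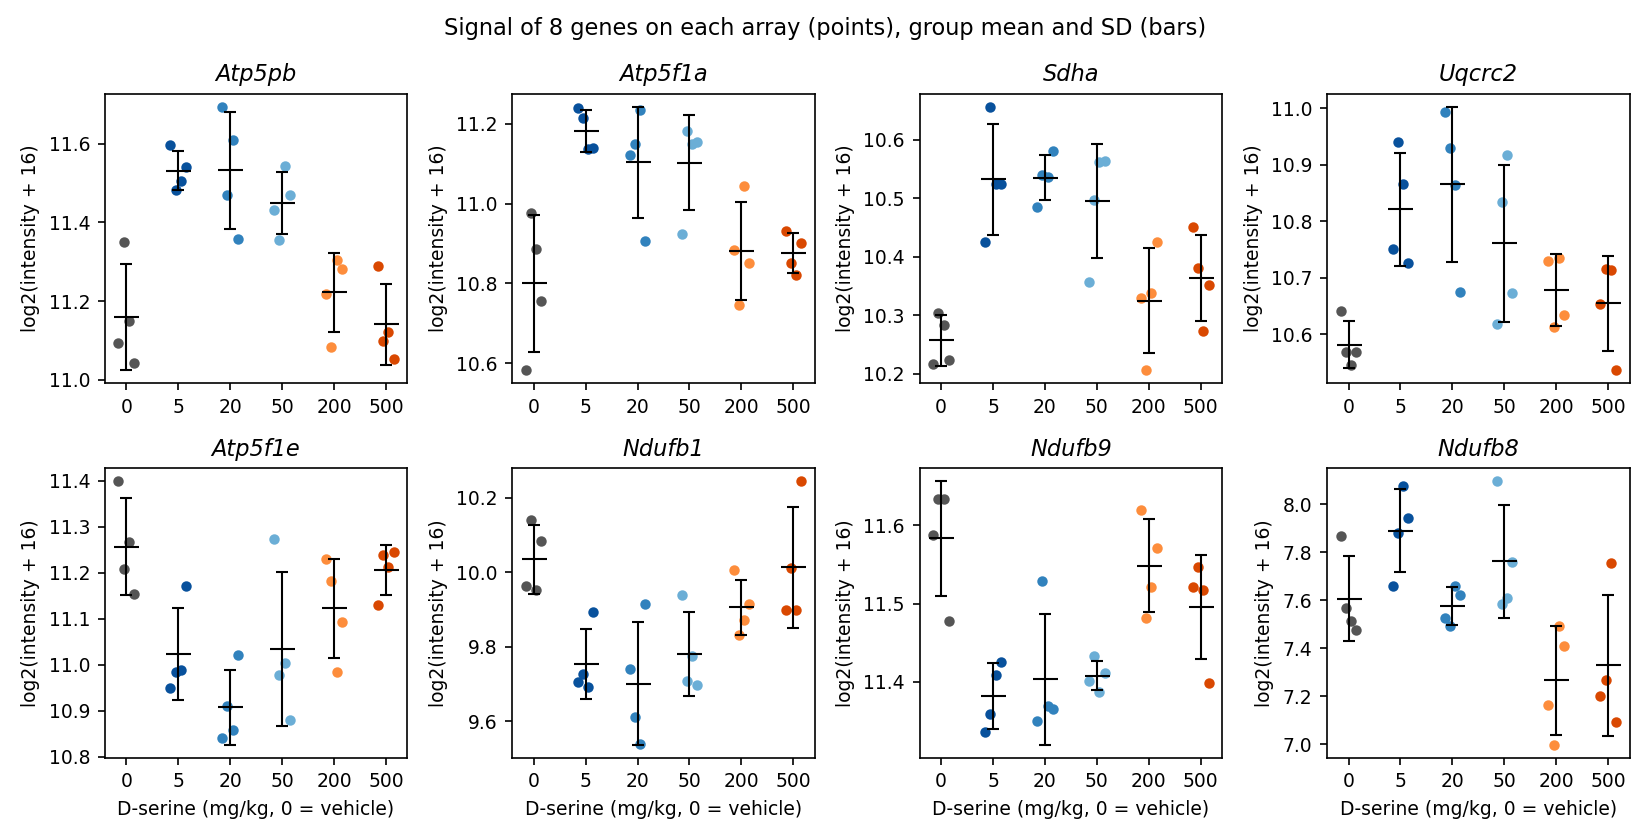
Signal of 8 genes as log2(intensity + 16) against D-serine dose (0 is vehicle), each array a point, with group mean ± SD as bars. Atp5pb and Sdha arrays at 5, 20 and 50 mg/kg lie above all vehicle arrays, Atp5f1e arrays at 20 mg/kg lie below them, and Ndufb8 is lowest at 200 and 500 mg/kg.

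The falls depended on how arrays were scaled. When each array was only centred on its median, members passing at 5 mg/kg were 5 higher and 0 lower (6.17%, against 5.64% of probe sets). At 20 mg/kg they were 9 higher and 0 lower (11.1%, against 8.77%). Atp5f1e at 20 mg/kg was then 0.23 below vehicle with an adjusted p of 0.0571. On the values as deposited, with no scaling, the median difference of all genes was itself 0.195 at 5 mg/kg and 0.381 at 20 mg/kg. There Atp5f1e was 0.09 above vehicle at 20 mg/kg, Ndufb1 0.118, Uqcrq 0.182, Cox7b 0.180 and Ndufb9 0.243 above, all with adjusted p of 0.0944 or more, and all still below the all-gene median. The rises of Atp5pb, Atp5f1a and Sdha at 5 and 20 mg/kg passed under all 3 scalings. Among all probe sets passing, 68.6% were higher at 5 mg/kg with quantile normalization, 86.6% with median centring and 99% as deposited, and 61.9%, 80.7% and 99.7% at 20 mg/kg.

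Dose groups were also compared with each other, as the mean of 5 and 20 mg/kg minus the mean of 200 and 500 mg/kg. The vehicle group is not in this difference, but its arrays enter the normalization, the filter and the estimate of the spread. In this comparison 12 of 81 genes passed (14.8%), against 7.28% of all genes and 11% of probe sets. Of them 8 were higher at the lower doses (9.88%, against 3.7%) and 4 were lower (4.94%, against 3.58%). Higher were Ndufb8, Atp5pb, Atp5f1a, Ndufaf3, Ndufa5, Sdha, Ndufa8 and Uqcrc2, and lower were Ndufb1, Atp5f1e, Ndufb3 and Ndufb9. Without 500 mg/kg array 4 the count was 13 (16%, against 9.85% of probe sets), 8 higher and 5 lower. Uqcrc2 and Ndufa5 then did not pass (adjusted p = 0.0623 and 0.0564). Among the named genes only Sdhd passed in addition (adjusted p = 0.0429), and the other members gained are not named here. Without the 5 arrays of high choroid plexus markers it was 6 (7.41%, against 6.64%), 5 higher and 1 lower.

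Ndufb8, a membrane-arm subunit of complex I, differed most, by 0.43 ± 0.10 (1.35-fold, adjusted p = 0.0076). It had 7.66, 7.88, 8.08 and 7.94 at 5 mg/kg and 7.53, 7.49, 7.66 and 7.62 at 20 mg/kg, against 7.164, 6.997, 7.492 and 7.407 at 200 mg/kg and 7.20, 7.27, 7.75 and 7.09 at 500 mg/kg. The vehicle arrays, with 7.87, 7.57, 7.51 and 7.48, overlapped with those of every dose group, and no dose differed from vehicle by the test (adjusted p from 0.296 to 0.937). Array 3 at 500 mg/kg was as high as the lower doses, and the call held in all 24 refits.

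Atp5pb differed by 0.35 ± 0.06 in this comparison (1.28-fold, adjusted p = 0.000244), Atp5f1a by 0.26 ± 0.06 (adjusted p = 0.00656) and Sdha by 0.19 ± 0.05 (adjusted p = 0.00914). Ndufaf3, a complex I assembly factor, differed by 0.23 ± 0.06 (adjusted p = 0.017), Ndufa8 by 0.18 ± 0.05 (adjusted p = 0.0206) and Ndufa5, an accessory subunit of the peripheral arm, by 0.22 ± 0.07 (adjusted p = 0.0388). These calls held in all 24 refits that left out 1 array, except Ndufa5, which kept its call in 14, with an adjusted p of up to 0.087. Uqcrc2 (adjusted p = 0.0364) kept its call in 16 refits and Ndufb9 (adjusted p = 0.0325) in 14, with an adjusted p of up to 0.0796 and 0.0759. The array of 500 mg/kg with cerebellar markers was among those whose omission ended the calls of Uqcrc2 and Ndufa5.

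On the lower side, Ndufb1 differed by -0.23 ± 0.06 (adjusted p = 0.0199), Ndufb3, a further membrane-arm subunit, by -0.14 ± 0.04 (adjusted p = 0.022) and Atp5f1e by -0.20 ± 0.06 (adjusted p = 0.0246). Under median centring the passing members were 8 higher and 0 lower (9.88%, against 9.65% of probe sets). As deposited 72 of 81 passed, all higher (88.9%, against 58.6% of probe sets), while the median of all genes was 0.343. Without scaling Ndufb1 was 0.137 higher and Atp5f1e 0.19 higher, both below that median. Ndufb1 lost its call without 20 mg/kg array 3, Ndufb3 without that array or 200 mg/kg array 2, and Atp5f1e without 5 mg/kg array 1, 20 mg/kg array 1 or 3, or 200 mg/kg array 1 or 2, with adjusted p of up to 0.052, 0.056 and 0.0619.

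Probe sets of the same gene differed in size of response for Uqcrc2 and Sdhd, and for Ndufaf7 in whether they passed. No reading of second probe sets was planned, for Uqcrc2 or for the others. Sdhd and Ndufaf7, given in the next paragraph, were singled out for this after their values were seen. Other genes with several probe sets are not described here. The dimmer probe set of Uqcrc2 had 8.56, 8.69, 7.61 and 8.25 with vehicle, 9.25, 9.42, 9.71 and 9.95 at 5 mg/kg, and 9.95, 9.29, 9.76 and 9.47 at 20 mg/kg. Its arrays at both doses were above all vehicle arrays, and it rose by 1.31 ± 0.23 at 5 mg/kg (2.48-fold, adjusted p = 0.00142) and 1.34 ± 0.23 at 20 mg/kg (2.53-fold, adjusted p = 0.000729). The brighter probe set of the gene, given above, was 1.18-fold and 1.22-fold of vehicle at those doses. The dimmer one was 0.74 above vehicle at 50 mg/kg (adjusted p = 0.122) and 0.20 and 0.18 above at 200 and 500 mg/kg.

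For Sdhd the dimmer probe set rose by 0.42 ± 0.11 at 5 mg/kg (adjusted p = 0.0233) and 0.36 ± 0.11 at 20 mg/kg (adjusted p = 0.0356), while the brighter was 0.20 and 0.19 above. For Ndufaf7, a methyltransferase that assists complex I assembly, the dimmer probe set rose by 0.37 ± 0.10 at 20 mg/kg (adjusted p = 0.0253) and the brighter was 0.31 above without passing (adjusted p = 0.238). Where in each transcript the probes lie was not looked up here. These sizes stand beside the 3' to 5' ratios above, which were low in the same groups, and the relation between them was not tested.

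**Figure D4:**
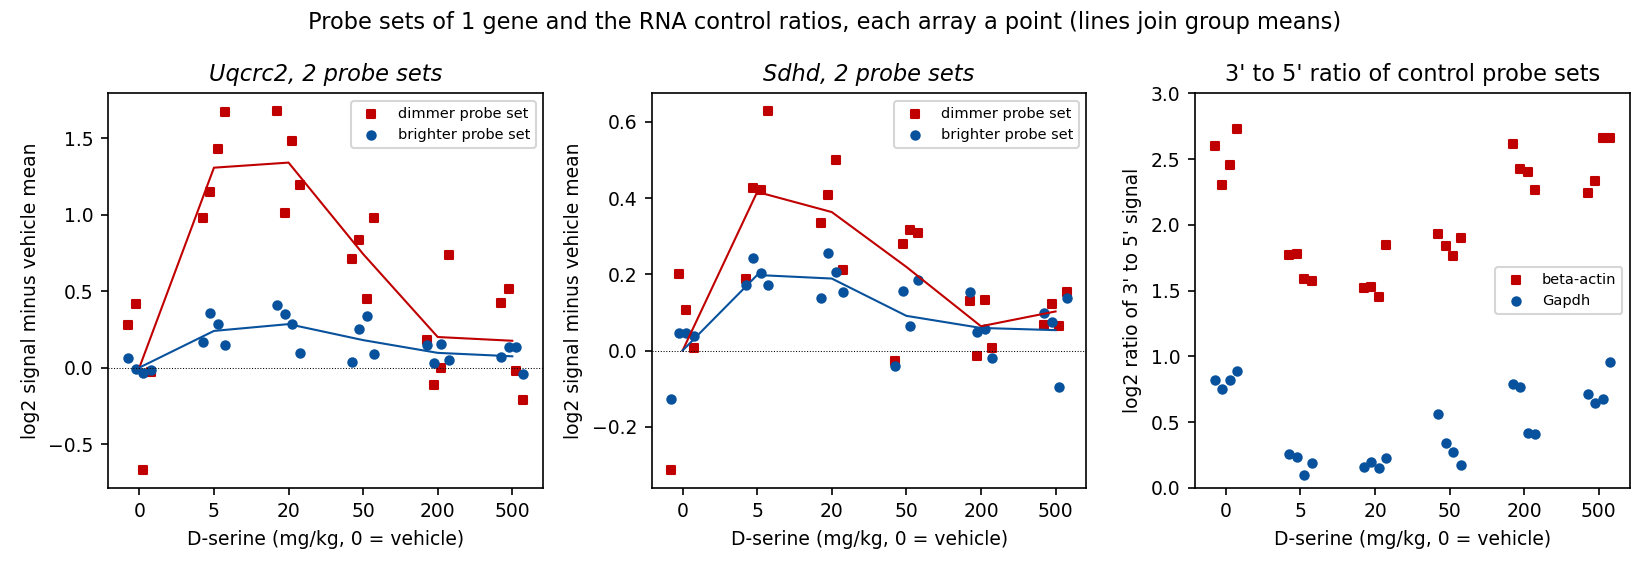
Log2 signal minus the vehicle mean for both kept probe sets of Uqcrc2 and of Sdhd, and the log2 3' to 5' ratio of the beta-actin and Gapdh controls, against dose, each array a point, with lines joining group means in the panels of probe sets. The dimmer probe set of Uqcrc2 is 1.31 and 1.34 above vehicle at 5 and 20 mg/kg, the doses at which the Gapdh ratio averages 0.19 and 0.18, against 0.82 with vehicle.

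With the Gapdh ratio as a term in the limma model, no member passed in any comparison, and no probe set of the array passed at 5 or 20 mg/kg or between the lower and higher doses. Atp5pb was then 0.14 above vehicle at 5 mg/kg (adjusted p = 0.845) and 0.14 at 20 mg/kg (adjusted p = 0.854), and Sdha 0.09 at both (adjusted p = 0.877 and 0.895). Of the 81 genes 3 had an unadjusted p under 0.05 at 5 mg/kg (3.7%, against 6.63% of probe sets), 2 at 20 mg/kg (2.47%, against 6.42%) and 4 between the lower and higher doses (4.94%, against 5.27%). The ratio hardly varied within groups (SD 0.13) beside the span of group means, 0.183 to 0.823, and the median standard error of members rose to 0.14 at 5 mg/kg, against 0.0755 without the term. Dose and RNA completeness therefore cannot be told apart at 5 and 20 mg/kg in these arrays.

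Other genes of the pathway were read from lists with the same test. Of all genes, 3.24% passed at 5 mg/kg, 5.16% at 20 mg/kg, 0.402% at 50 mg/kg and 7.28% between lower and higher doses. Of 4 measured electron carriers and related genes, Cyc1, the cytochrome c1 subunit of complex III that the symbol rule leaves out, rose by 0.36 ± 0.08 at 5 mg/kg (adjusted p = 0.00588) and 0.30 ± 0.08 at 20 mg/kg (adjusted p = 0.0134), and the list's median was -0.15 and -0.08. Its other members with the smallest F test p, the electron transfer flavoproteins Etfb and Etfa, were 0.27 and 0.24 below vehicle at 5 mg/kg without passing. Of 29 assembly factors above the filter, Cox17, a copper chaperone for complex IV, fell by 0.35 ± 0.10 at 5 mg/kg (adjusted p = 0.0383) and Coa3, an assembly factor of complex IV, rose by 0.26 ± 0.08 at 20 mg/kg (adjusted p = 0.0392). The heme A synthase Cox15 was 0.26 and 0.25 below vehicle at 5 and 20 mg/kg, and differed by -0.28 ± 0.07 between the lower and the higher doses (adjusted p = 0.0128). The list's median was 0.07 at 5 and at 20 mg/kg.

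Of 13 measured genes of the tricarboxylic acid cycle, 2 rose and 0 fell at 5 mg/kg, where 3.24% of all genes passed. At 20 mg/kg 3 rose and 0 fell, where 5.16% of all genes passed. Ogdh, the first subunit of the oxoglutarate dehydrogenase complex, rose by 0.24 ± 0.06 and 0.19 ± 0.06 (adjusted p = 0.0141 and 0.0364). Dld, the lipoamide dehydrogenase shared by several such complexes, rose by 0.26 ± 0.07 and 0.30 ± 0.07 (adjusted p = 0.0292 and 0.00758). Malate dehydrogenase Mdh2 was 0.24 above at 5 mg/kg (adjusted p = 0.054) and rose by 0.23 ± 0.07 at 20 mg/kg (adjusted p = 0.0464). Above vehicle were 10 of the 13 genes at 5 mg/kg and 11 of them at 20 mg/kg, with medians of 0.13 and 0.16. Of all genes 48.7% were above vehicle at each of these doses.

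Among 12 regulators of mitochondrial genes above the filter, Ppargc1a, the coactivator PGC-1alpha, rose by 0.41 ± 0.10 at 5 mg/kg (adjusted p = 0.0174), 0.33 ± 0.10 at 20 mg/kg (adjusted p = 0.0373) and 0.51 ± 0.10 at 50 mg/kg (adjusted p = 0.015). Its relative Ppargc1b fell by 0.54 ± 0.13 at 5 mg/kg (adjusted p = 0.0171) and was 0.41 below at 20 mg/kg (adjusted p = 0.0576), while Gabpb1, a subunit of GABP, was 0.02 and 0.18 below. The list's median was 0.03 and -0.01 at 5 and 20 mg/kg. Of 9 genes for the export of ATP from mitochondria, none passed at any single dose by limma, and the adenine nucleotide carrier Slc25a5 was 0.20 and 0.19 above vehicle (adjusted p = 0.0813 and 0.0776), with its sister Slc25a4 0.17 and 0.19 above and creatine kinase Ckb 0.02 above and 0.14 below. Slc25a5 was higher by 0.18 ± 0.05 at the lower than at the higher doses (adjusted p = 0.0175).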

How the data were processed

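The deposited values were intensity on a linear scale, 1 signal per probe set. Per the submitters' processing notes, GCOS produced the signals; the version, scaling and detection settings are not given in the sources read for this report. Array medians of log2(intensity + 16) spanned 0.737, above the limit of 0.5, so quantile normalization was applied. Of the probe sets 57 were controls and were left out, as was the dimmest 40%. A single limma fit (version 3.58.1 in R 4.3.3) with an intensity trend took the 24 arrays as 6 groups. Probe sets were named by the platform annotation, in which 20832 carried 1 symbol and 436 several.

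The members, lists and comparisons were chosen with earlier results of these data known. Named genes were the 3 with the smallest F test p in each complex and pathway list, the largest changes that passed, core subunits and tissue isoforms. Some of these are not reported here. Each array was left out in turn, and scaling, pseudocount, filter, probe set choice and a Gapdh term were varied. The limma step was tested on simulated data. The labels name no batch.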

Additional observations from a re-analysis of the deposited data

Results flagged for a closer look

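In groups of 4 arrays, 9 of 210 groups of named genes and complex levels had 1 array far from the other 3 by Dixon's test at the 95% level. Chance gives about 1 in 20 groups. Among genes that fell, Ndufb9 was 11.53 on array 2 of 20 mg/kg, where the next highest was 11.37, and this is the array that overlapped with vehicle. Ndufb1 was 9.893 on array 4 of 5 mg/kg, where the next was 9.726, and Cox7b was 11.64 on array 2 of 5 mg/kg, where the next was 11.49. Among genes that rose, Atp5f1a was 10.92 on array 1 of 50 mg/kg, where the next lowest was 11.15. Ndufa8 was 10.37 on array 4 of 500 mg/kg, where the next lowest was 10.7, and this is the array with cerebellar markers. Sdhd was 9.907 on array 1 of vehicle, where the next lowest was 10.07. Uqcrc1 was 10.36 on array 4 of 200 mg/kg, where the next lowest was 10.5, and Cox6b1 was 11.32 on array 1 of 5 mg/kg, where the next highest was 11.24. The mean level of complex IV was 9.935 on array 3 of 200 mg/kg, where the next lowest was 9.997.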

How the results depend on the processing

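Of 26 calls of named genes, all kept direction and threshold with a pseudocount of 1 or 64 and with a filter of 60%. The number kept was 15 with median centring, 19 with no filter, 20 with 1 probe set per gene, 16 with values as deposited, 15 without the 5 arrays of high choroid plexus markers, and 0 with the Gapdh term (1 reversed). As deposited 10 changed sign and, measured against the all-gene median of that fit, 0 did. Leaving out each array in turn kept 537 of 624, with 0 reversed. Members passing numbered 3 at 5 mg/kg and 3 by the F test both with no filter and with 1 probe set per gene. With no filter this was 3.49%, against 2.62% and 3.13% of probe sets. With 1 probe set per gene it was 3.7%, against 1.98% and 2.44% of genes. As deposited they numbered 54 at 20 mg/kg (66.7%, against 37.1% of probe sets), 72 between lower and higher doses (88.9%, against 58.6%) and 40 by the F test (49.4%, against 30.2%). Without the 5 arrays of high choroid plexus markers they numbered 6 between lower and higher doses (6.64% of probe sets) and 3 by the F test (4.97%). With the Gapdh term, also when 500 mg/kg array 4 was left out (an alternative chosen after seeing the data), they numbered 0 at 5 and 20 mg/kg, between lower and higher doses and by the F test (0% of probe sets). At an unadjusted limma p under 0.05 there were then 3, 2, 4 and 1 members (6.63%, 6.42%, 5.27% and 4.17% of probe sets). Without that array there were 4, 4, 7 and 2 (5.12%, 4.83%, 5.74% and 4.59%).

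Leaving out 1 array gave 2 (without 5 mg/kg array 2, with 3.45% of probe sets passing) to 8 (without 500 mg/kg array 4, with 8.98%) members at 5 mg/kg. At 20 mg/kg it gave 3 (without 20 mg/kg array 3, with 5.27%) to 13 (without 500 mg/kg array 4, with 12.7%). At 50 mg/kg it gave 0 to 3 (without 50 mg/kg array 1, with 2.19%). At 200 and 500 mg/kg it gave 0, with at most 0.0376% and 0.0161% of probe sets passing. Between lower and higher doses the count was 6 (without 20 mg/kg array 3, with 8.14%) to 14 (as without vehicle array 2, with 10.7%). By the F test it was 3 (as without 20 mg/kg array 3, with 3.84%) to 8 (without 500 mg/kg array 4, with 7.52%). At 5 mg/kg the count was 3 without vehicle array 1, 2 or 3 or 5 mg/kg array 1 or 3, with 3.14% to 4.81% of probe sets passing. At 20 mg/kg it was 5 without vehicle array 2 (6.57%), 4 without 20 mg/kg array 1 (6.13%) and 5 without 20 mg/kg array 2 (5.27%).

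As deposited, against an all-gene median of 0.195, 0.381 and 0.343, these differences changed sign. Ndufb9 was 0.05073 at 5 mg/kg. At 20 mg/kg Ndufb1 was 0.1184, Ndufb9 0.243, Uqcrq 0.1815, Cox7b 0.1797, Atp5f1e 0.08961, Uqcrc1 0.3706 and Cox6b1 0.4257. Between lower and higher doses Ndufb1 was 0.1365, Ndufb9 0.2553, Uqcrq 0.2542, Atp5f1e 0.1899, Ndufb3 0.2502, Ndufs1 0.3704 and Uqcrc1 0.2722. With the Gapdh term Atp5f1e was 0.03988 between lower and higher doses, and without 500 mg/kg array 4 also 0.01406 at 20 mg/kg and 0.06273 between lower and higher doses, with Ndufa5 at -0.006462. The cause of these changes was not tested. No paired analysis was possible because each rat is in 1 group and the replicate numbers are only names. Number of arrays limits what small differences can show.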
